A study of Mus musculus with 20 samples.

Results

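Expression of 48 mouse genes of DNA replication and S phase was examined in the bone marrow of mice transplanted with T lineage acute lymphoblastic leukemias (T-ALLs). The genes were taken from a fixed list of symbols matched to the Ensembl rows of the deposited count table, and all 48 were found among its 39017 genes. The leukemias arose after insertional mutagenesis (IM), in which the retrovirus MOL4070LTR was injected into newborn C57Bl/6 x 129Sv/Jae mice. Some donor mice carried Mx1-Cre and others were wild-type littermates. In the former, a single dose of pIpC turned on Mx1-Cre, whose interferon-responsive promoter is active in many blood and other cells. Each primary leukemia was passed into irradiated wild-type F1 recipients of the same cross, and RNA was taken from whole recipient marrow, which still holds host blood cells. Labels give the strain and the mutagen, but not the genotype of each leukemia, so genotypes were not compared. Results are given for JW14, JW81, 5C, 78A, 8633, 2M, 20M, 73M and 73A (n = 9 leukemias, 2 libraries each). A further leukemia, 4638, whose name was found only in the labels and the count table, was kept out of the fit and is described apart. The column of 1 library of each leukemia carries the letters VEH and that of the other carries DEX. Neither the labels nor the study's methods explain these letters, so they are used here only as column names. Nothing states that the libraries came from separate animals, so p-values measure the spread between these libraries, which may be technical.

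DNA replication begins with licensing, in which the origin recognition complex, CDC6 and CDT1 load the MCM2-7 helicase onto origins during G1 phase. CDC45 and the GINS complex then turn the loaded helicase into the active replicative helicase, and primase, the DNA polymerases, the PCNA clamp with its RFC loader, and the nucleotide-making enzymes carry out synthesis. Many of these genes are transcribed as cells pass from G1 into S phase under control of E2F transcription factors, and their mRNAs are widely used to mark cycling cells.

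The promoters of the licensing genes are shown because this group held all the genes that passed the test between DEX and VEH columns. The 4 sequences TTTCCCGC, TTTCGCGC, TTTGCCGC and TTTGGCGC, which spell out common forms of the E2F site, were searched on both strands of the RefSeq promoter windows, which run from 250 bases before to 50 bases after a gene's start (GRCm38.p6). Matches could overlap each other. A match was present in 15 of the 38 members with a window (39.5%) and in 2.605% of the windows of all 27025 genes. In the licensing group 7 of 9 windows held a match, while none of the 5 windows of the nucleotide supply group did. The matches of the licensing genes are given below in the direction of transcription with the matched bases in capitals. For *Mcm3*, *Mcm6* and *Mcm7*, which had further matches, the match farthest upstream is given.
Orc1, chr4:108579417-108579444 (+): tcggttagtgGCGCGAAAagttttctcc
Cdc6, chr11:98907997-98908036 (+): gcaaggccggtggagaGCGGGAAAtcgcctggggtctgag
Cdt1, chr8:122568037-122568064 (+): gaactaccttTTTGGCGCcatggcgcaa
Mcm3, chr1:20820276-20820303 (-): aacttccgtgGCGGGAAAacttgggaag
Mcm5, chr8:75109340-75109383 (+): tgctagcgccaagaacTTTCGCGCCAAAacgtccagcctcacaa
Mcm6, chr1:128359788-128359831 (-): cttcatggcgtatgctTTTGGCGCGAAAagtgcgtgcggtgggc
Mcm7, chr5:138172031-138172058 (-): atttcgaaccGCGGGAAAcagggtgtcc
The runs of *Mcm5* and *Mcm6* each hold 2 overlapping matches, on opposite strands. The stretches of *Cdc6*, *Mcm5* and *Mcm6* lay outside every annotated exon, while those of *Orc1*, *Cdt1*, *Mcm3* and *Mcm7* touched an exon or the start of the gene. The other members with a match were *Gins3*, *Rfc3*, *Pola1*, *Pold1*, *Lig1*, *Uhrf1*, *E2f2* and *Clspn*. Windows of *Mcm2* and *Orc6* held none of these letters, and *Mcm4* and *Gmnn* had no window in the table.

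The libraries held 8226528 to 201222288 counts, and the deepest was the VEH library of 73M. Every member was above 1 FPKM (fragments per kilobase of exon and per M counts of the library) in every library, and the lowest value, 3.22 FPKM for *Orc1*, stood against at most 0.270 FPKM for 3 counts on any member in the shallowest library. All 48 passed the filter of a mean of at least 1 FPKM, which left 11339 genes for the tests. Of the 12 T lineage markers, 7 were above 10 FPKM in every library, and 3 of the 9 B lineage markers were under 1 FPKM in every library. In 5 libraries ribosomal RNA genes held 21.6 to 64.05 counts per M, against at most 0.00497 in the other 13. These were the DEX columns of JW81, JW14, 73M and 20M and, in 5C alone, the VEH column. The counts therefore overlap with the DEX columns, and values with and without those leukemias are given for the calls between the columns.

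The first comparison asked whether the genes differed between the DEX and VEH columns of the same leukemia. Of the 48 members, 3 passed, all lower in the DEX columns, and all are licensing genes. These were *Cdc6* (log2 fold change -0.45, SE 0.108, adjusted p = 0.0211), *Orc1* (-0.44, SE 0.110, adjusted p = 0.0252) and *Mcm4* (-0.33, SE 0.0883, adjusted p = 0.0324). The share of members called lower was 6.25%, and the background share of all tested genes called lower was 6.79% (13.0% in either direction). No member was called higher by edgeR or by DESeq2, against 6.22% of all genes by edgeR. At an unadjusted p under 0.05, 6 members were lower (the 3 called genes, *Orc6*, *Dut* and *Ccne2*) and 3 were higher (*Gins4*, *Rfc5* and *Tk1*), against 15.7% and 15.8% of all genes, so neither share of the members (12.5% and 6.25%) exceeded that of all genes. The fitted change was below 0 for 31 of 48 members and for 49.1% of all genes. The median fitted change was -0.06 for the members and 0.00 for all genes tested, so as a list the members lay only slightly below the rest.

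**Figure D1:**
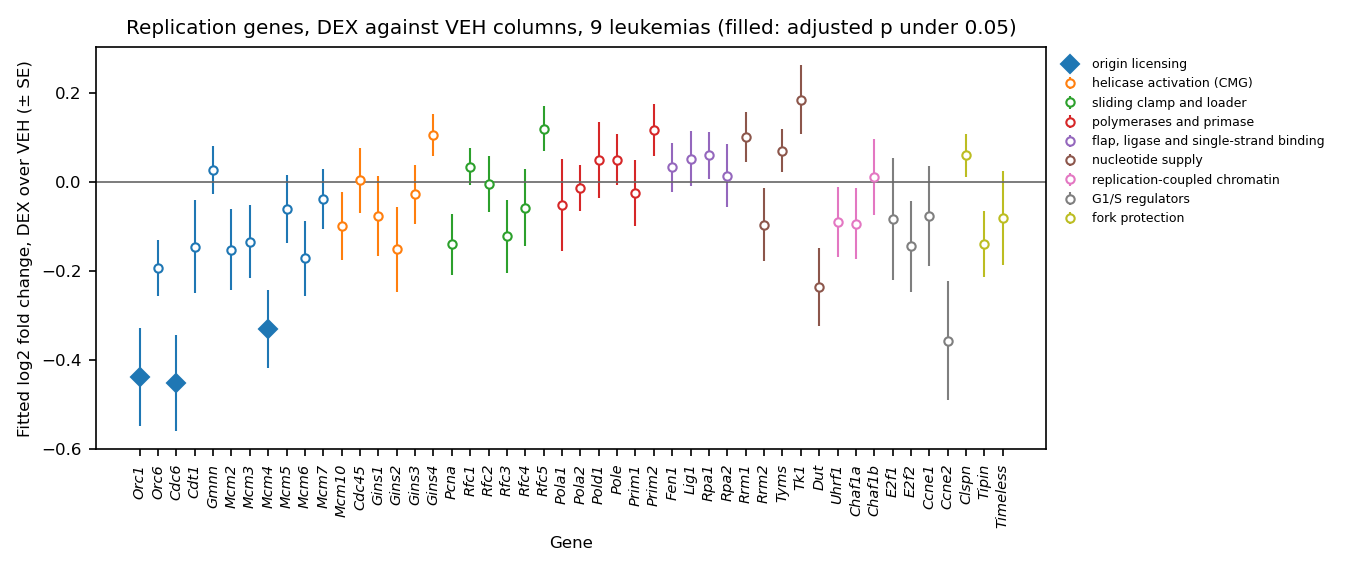
Fitted log2 fold change of each of the 48 genes, DEX over VEH columns, with its standard error over 9 leukemias, coloured by role. *Orc1*, *Cdc6* and *Mcm4*, the filled diamonds, lie between -0.33 and -0.45, and most other genes lie within 2 standard errors of 0.

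Among the 11 licensing genes, 10 were fitted below 0, with a median of -0.15. CDC6 is the ATPase that, with CDT1, brings the MCM helicase to the origin. *Cdc6* (chr11:98907801-98923940) ranged from 12.6 to 28.8 FPKM in the VEH columns (median 19.1) and from 8.83 to 23.5 FPKM in the DEX columns (median 13.8). It was lower in the DEX column of 9 of 9 leukemias, although the ranges of the columns overlapped because leukemias differed in level. The difference in log2(FPKM + 1) was -0.98 in 73M, -0.95 in 73A and -0.86 in 20M, and it lay between -0.05 and -0.38 in the other 6. ORC1 is the largest subunit of the origin recognition complex. *Orc1* (chr4:108579423-108614833) had a median of 6.35 FPKM in the VEH columns (5.59 to 14.0) and of 4.34 FPKM in the DEX columns (3.22 to 12.4). It was lower in 8 of 9 leukemias, and in JW14 its values were 12.26 FPKM in the VEH and 12.29 FPKM in the DEX column. MCM4 is a subunit of the hexameric MCM2-7 helicase. *Mcm4* (chr16:15623897-15637400) had a median of 70.2 FPKM in the VEH columns (54.0 to 99.0) and of 52.4 FPKM in the DEX columns (36.9 to 93.9), and was lower in 9 of 9 leukemias. Its difference was between -0.03 and -0.07 in 5C, 8633 and JW14, and between -0.20 and -0.77 in the other 6. Coordinates are those of GENCODE release M21 on GRCm38.

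**Figure D2:**
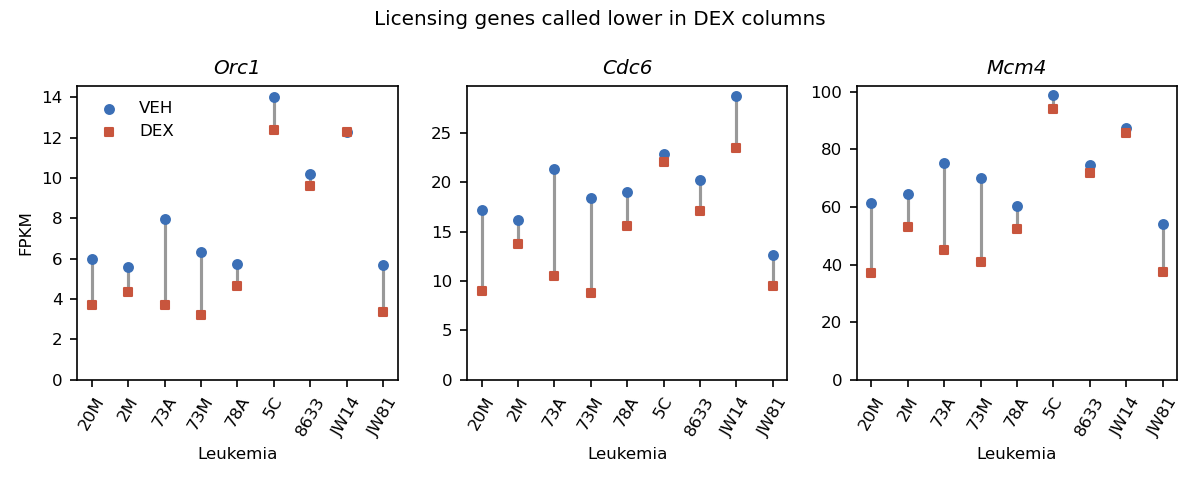
FPKM of *Orc1*, *Cdc6* and *Mcm4* in the VEH (circles) and DEX (squares) column of each of 9 leukemias, with a line joining the 2 libraries of a leukemia. *Cdc6* and *Mcm4* are lower in the DEX column of 9 of 9 leukemias and *Orc1* in 8 of 9.

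These 3 calls depended on which leukemias entered the fit. Without 20M none of them passed (for *Cdc6*, unadjusted p = 0.00374 and adjusted p = 0.0549), and without 2M, 73A, 73M or JW81 *Cdc6* alone passed. In the 4 leukemias with no ribosomal RNA library the fitted changes were -0.40 for *Cdc6*, -0.41 for *Orc1* and -0.28 for *Mcm4*, with adjusted p = 0.121, 0.172 and 0.189. In the 5 leukemias with such a library they were -0.50, -0.46 and -0.38, with adjusted p = 0.139, 0.143 and 0.160, and with a term for those libraries over all 9 leukemias they were -0.36, -0.38 and -0.26, with adjusted p = 0.0816, 0.0949 and 0.118.

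The remaining licensing genes did not pass. *Orc6*, a further subunit of the origin recognition complex, was fitted at -0.19 (SE 0.0629, adjusted p = 0.0606) and was lower in 7 of 9 leukemias. The other MCM subunits lay between -0.17 for *Mcm6* (SE 0.0837, adjusted p = 0.180) and -0.04 for *Mcm7*. *Mcm2* was fitted at -0.15 (SE 0.0911, adjusted p = 0.268), with 27.8 to 48.2 FPKM in the VEH and 19.1 to 56.4 FPKM in the DEX columns. For *Mcm2*, *Mcm3*, *Mcm5* and *Mcm6* the difference was negative in 78A, 73M, 73A, JW81, 2M and 20M and positive in 5C, 8633 and JW14. *Cdt1*, the loading factor that is destroyed once S phase begins, was fitted at -0.15 (SE 0.104, adjusted p = 0.358), with differences of -0.52 in 73A and 0.43 in JW14. *Gmnn* encodes geminin, the inhibitor of CDT1, and was fitted at 0.03 (SE 0.0542, adjusted p = 0.761). The ratio of *Cdt1* to *Gmnn* in FPKM was below 1 in 18 of 18 libraries (0.368 to 0.675) and was higher in the DEX column of 3 of 9 leukemias.

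In the helicase activation group none of the 6 genes passed. *Gins4*, a GINS subunit, had the smallest adjusted p of the group, with a fitted change of 0.11 (SE 0.0474, adjusted p = 0.148), and ranged from 22.2 to 37.6 FPKM in the VEH and from 21.4 to 37.5 FPKM in the DEX columns. These ranges were almost the same. None of the 6 clamp and loader genes passed. *Pcna*, the sliding clamp, was the member with the highest mean level (155 FPKM) and was fitted at -0.14 (SE 0.0687, adjusted p = 0.185). It was lower in 6 of 9 leukemias, with a median of 160 FPKM in the VEH and of 132 FPKM in the DEX columns. *Rfc5*, a subunit of the clamp loader, was fitted at 0.12 (SE 0.0503, adjusted p = 0.126). *Rfc4*, a further loader subunit, was fitted at -0.06 (SE 0.0873), with a difference of -0.70 in 73M and of 0.25 in 78A.

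None of the 6 polymerase and primase genes or of the 4 genes for flap removal, ligation and single-strand binding passed. *Prim1* and *Prim2* encode the small and large subunits of primase. *Prim2* was fitted at 0.12 (SE 0.0589, adjusted p = 0.193) and *Prim1* at -0.02 (SE 0.0739, adjusted p = 0.852). *Pole*, the catalytic subunit of the leading-strand polymerase, was fitted at 0.05 (SE 0.0566), and *Pola1*, the catalytic subunit of polymerase alpha, at -0.05 (SE 0.103). *Lig1* joins Okazaki fragments and was fitted at 0.05 (SE 0.0628), and *Rpa1*, the large subunit of the single-strand binding complex, at 0.06 (SE 0.0528). The 4 genes of the flap, ligase and single-strand binding group were all fitted above 0, between 0.01 and 0.06, and the 95% interval of each held 0.

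In the nucleotide supply group the 5 genes spread to both sides and none passed. *Dut*, the dUTPase that keeps uracil out of DNA, was fitted at -0.23 (SE 0.0878, adjusted p = 0.0937), with 81.2 to 157 FPKM in the VEH and 63.4 to 102 FPKM in the DEX columns. It was lower in 7 of 9 leukemias. *Tk1*, the thymidine salvage kinase, had the highest fitted change of all members, 0.19 (SE 0.0778, adjusted p = 0.127), and was higher in 6 of 9. *Tyms*, which makes thymidylate, was fitted at 0.07 (SE 0.0490, adjusted p = 0.336) and was higher in 7 of 9. *Rrm1* and *Rrm2* encode the large and small subunits of ribonucleotide reductase. *Rrm2* was fitted at -0.10 (SE 0.0818, adjusted p = 0.442) and *Rrm1* at 0.10 (SE 0.0561, adjusted p = 0.233). The ratio of *Rrm2* to *Rrm1* in FPKM was lower in the DEX column of every leukemia except 5C, for example 2.58 in the VEH and 1.81 in the DEX column of 20M, and 1.203 and 1.384 in 5C.

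Among the 3 replication-coupled chromatin genes, *Uhrf1*, which brings the maintenance DNA methyltransferase to new DNA, was fitted at -0.09 (SE 0.0787, adjusted p = 0.453). *Chaf1a*, the large subunit of the histone chaperone CAF-1, was fitted at -0.09 (SE 0.0795, adjusted p = 0.443). All 4 G1/S regulators were fitted below 0 and none passed. *Ccne2*, a cyclin E gene, had the lowest of these values, -0.36 (SE 0.134, adjusted p = 0.0952), with 11.2 to 19.8 FPKM in the VEH and 6.24 to 14.1 FPKM in the DEX columns. It was lower in 6 of 9 leukemias. *Ccne1* was fitted at -0.08 (SE 0.113, adjusted p = 0.675). The ratio of *Ccne1* to *Ccne2* in FPKM was below 1 in 18 of 18 libraries, and it was higher in the DEX column of 8 of 9 leukemias, the exception being 78A. The activator E2F genes were fitted at -0.08 for *E2f1* (SE 0.137, adjusted p = 0.708) and -0.14 for *E2f2* (SE 0.102, adjusted p = 0.349). *E2f1* had differences from -0.76 in 73A to 0.54 in JW14. Of the fork protection genes, *Tipin* was fitted at -0.14 (SE 0.0735, adjusted p = 0.214) and its partner *Timeless* at -0.08 (SE 0.105, adjusted p = 0.625), with differences from -0.59 in 78A to 0.59 in JW14.

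The size and direction of the difference varied between leukemias. In 20M, 73A and 73M, 45 of 48 members were lower in the DEX column, against 56.5%, 56.3% and 59.8% of all genes in those leukemias. The counts were 34 in 78A (all genes 53.2%), 30 in JW81 (59.8%), 22 in 2M (50.8%), 21 in 5C (58.3%), 12 in 8633 (57.4%) and 11 in JW14 (46.4%). In 4638, which was not part of the main fit, 39 of 48 were lower (52.9%). At a difference of at least 1.25-fold on the log2(FPKM + 1) scale, 19 members were lower in 20M (all genes 12.7%), 21 in 73A (16.2%) and 26 in 73M (27.9%), while 9 were lower in JW81 (23.7%), 6 in 78A (10.4%), 2 in 2M (11.6%), 1 in JW14 (6.53%) and none in 5C or 8633 (7.92% and 8.66%). By the same measure 5 members were higher in JW14 (all genes 10.3%), 2 in 5C (5.23%) and 2 in JW81 (10.9%). None were higher in 20M (9.59%), 2M (8.51%), 73A (10.7%), 73M (14.5%), 78A (7.56%) or 8633 (3.08%). With FPKM scaled by TMM library sizes, an alternative added after the data were seen, the counts lower became 42 in 20M (all genes 49.5%), 40 in 73A (48.4%) and 40 in 73M (51.2%). They became 32 in 78A (49.8%), 21 in 2M (48.7%), 18 in JW81 (47.7%), 17 in JW14 (53.6%), 13 in 5C (49.2%) and 8 in 8633 (46.1%). On the same scale the members lower by at least 1.25-fold in JW81 went from 9 to 4 (16.3% of all genes) and those higher from 2 to 5 (18.0%). In JW81 the median difference of the members was -0.03 as FPKM and 0.08 with TMM sizes, so its direction depended on the scaling.

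**Figure D3:**
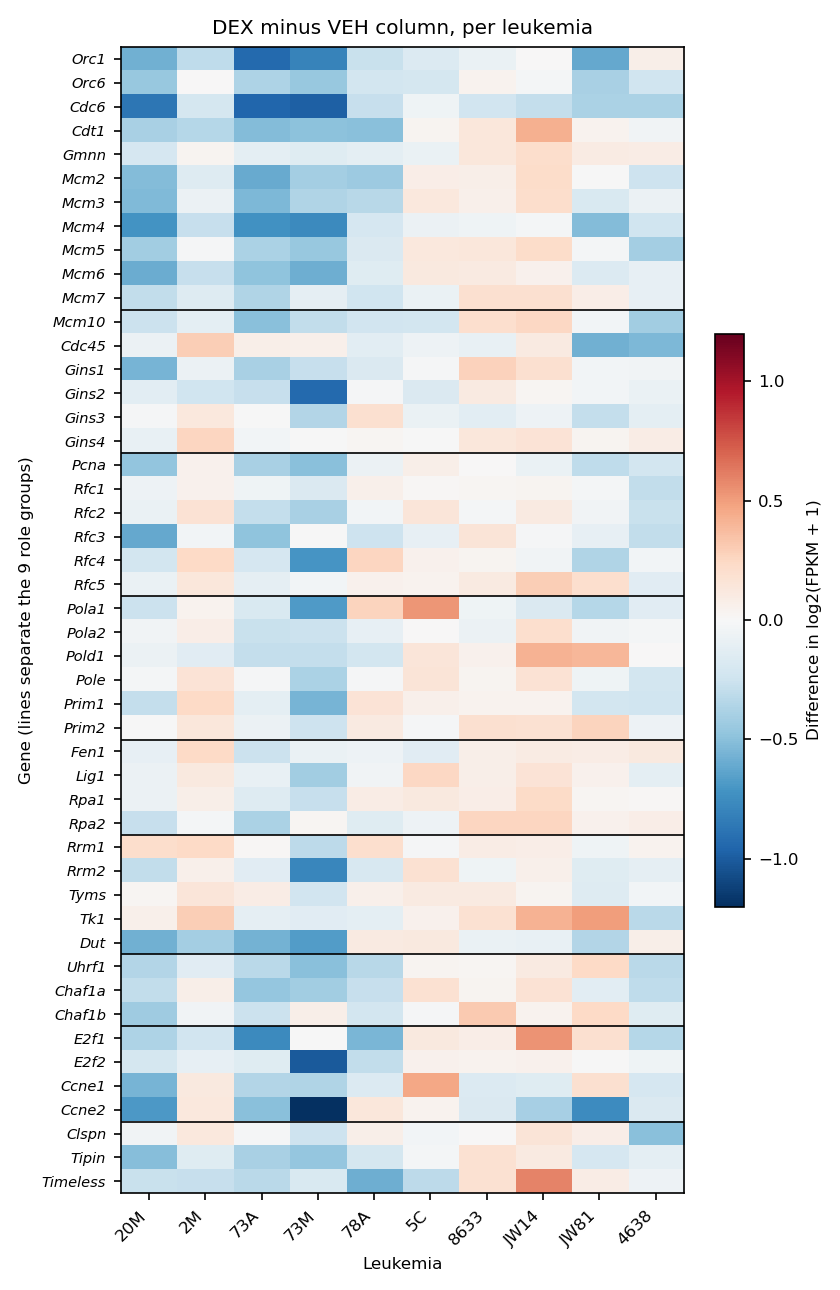
Difference in log2(FPKM + 1), DEX minus VEH column, for 48 genes in 10 leukemias, with blue lower and red higher in the DEX column. Most genes are blue in 20M, 73A and 73M, where 45 of 48 were lower, and the columns of 8633 and JW14 are mostly pale red.

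A library score was computed by averaging log2(FPKM + 1) over all 48 members. In the DEX column the score changed by -0.39 for 73M, -0.31 for 73A and -0.29 for 20M, and its change was -0.12 for 78A, -0.08 for JW81 and 0.00 for 2M. It changed by 0.03 in 5C, 0.06 in 8633 and 0.11 in JW14. The mean change was -0.11 ± 0.180 (SD, n = 9), smaller than its spread between leukemias. Of the leukemias with the largest declines, 73A had no ribosomal RNA library, while the DEX libraries of 73M and 20M were of that kind, as was that of JW14, which had the highest rise. Scores of neutrophil marker genes changed by -1.24 in 73M, -0.49 in 73A and -0.30 in 20M. They changed by -0.88 in JW81, -0.54 in JW14 and -0.29 in 5C, and by 0.07 in 2M, 0.45 in 8633 and 0.53 in 78A. On this scale the neutrophil and replication scores moved the same way in 73M, 73A, 20M, JW81 and 8633. They moved in opposite directions in 78A, 5C and JW14, and both were near 0 in 2M. In JW81 the direction of the replication genes depended on the scaling, with a median difference of -0.03 as FPKM and 0.08 with TMM sizes. Myeloid scores changed by -0.69 in 73M, -0.29 in 73A, -0.23 in 20M and -0.69 in JW81, and by -0.10 to 0.30 elsewhere. B lineage scores changed by -0.99 in 73M, -0.29 in 73A and between -0.07 and 0.04 elsewhere. Scores of erythroid genes changed by -2.50 in 73M, -1.17 in 73A and between -0.14 and 0.43 elsewhere, and those of the 12 T lineage genes by -0.20 to 0.02. The part of these shifts in the replication genes was not tested. In whole marrow, fewer cells of a type and less RNA per cell cannot be told apart.

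Levels of the replication genes ranged more widely over the 9 leukemias than they differed between the 2 libraries of a leukemia. The score was 5.05 in 5C, 4.87 in JW14, 4.79 in 8633, 4.55 in 78A, 4.51 in 73A, 4.45 in 2M, 4.39 in 73M, 4.36 in 20M and 4.31 in JW81. This range was 0.74, while the 2 libraries of a leukemia differed by up to 0.39 (median 0.11). A range over 9 values tends to exceed a difference between 2 libraries, so these measures are not alike. Gene by gene, the median range of log2(FPKM + 1) among leukemias was 1.01 for the members and 0.94 for all genes. Both libraries of 5C (5.03 and 5.06) lay above those of every other leukemia. The libraries of JW14 (4.81 and 4.92) and 8633 (4.76 and 4.82) overlapped each other and lay above all libraries of the remaining 6. Those 6 overlapped as neighbours in the order, with libraries between 4.19 and 4.67. The order of the leading 3 was the same in VEH and in DEX columns alone, while JW14 and 8633 changed places as TPM (5.38 and 5.43) and by the median over the members (4.56 and 4.58). Leukemia 5C had the highest score in each of these. The lowest was 20M with TMM library sizes, and 73M by the median and in DEX columns alone.

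**Figure D4:**
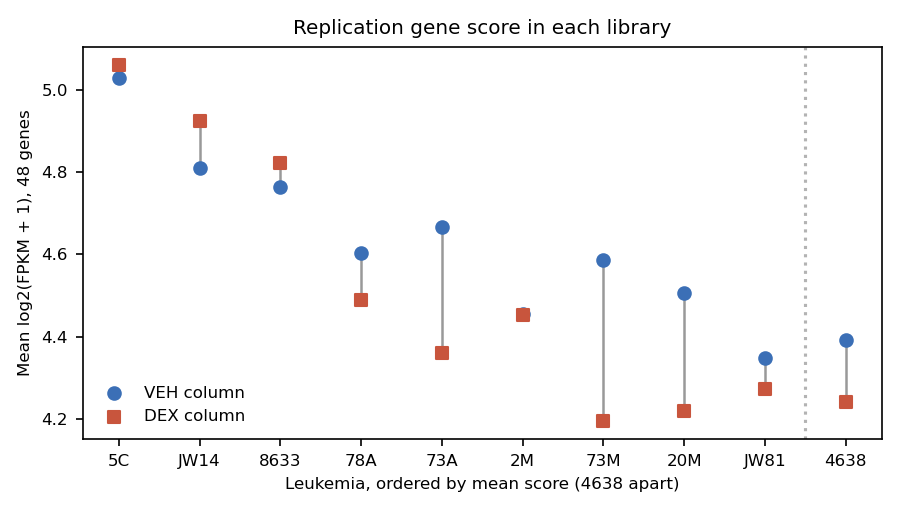
Average log2(FPKM + 1) over the 48 members in the VEH (circles) and DEX (squares) library of each leukemia, ordered by the mean of both, with 4638 apart. The libraries of 5C, JW14 and 8633 lie at 4.76 or above, and all libraries of the other leukemias lie at 4.67 or below.

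By edgeR's test across the leukemias, 43 of 48 members differed (89.6%, background 82.5% of all genes). *Gins2*, *Pola1*, *Rrm2*, *E2f2* and *Ccne2* did not pass. For 32 of 48 members (66.7%) the 3 leukemias with the highest level were 5C, 8633 and JW14, a pattern that held for 15.6% of all genes. These 3 leukemias were picked out from the data and are not groups of the study. They have the highest score over these same 48 members. A share above that of all genes follows largely from that choice and is no separate evidence. Level was highest in 5C for 31 of 48 members (15.5% of all genes) and lowest in JW81 for 19 (14.9%).

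Scores of the T lineage list separated these 3 leukemias from the rest. Those of the B lineage list did so with a narrow gap close to 0, and those of the myeloid, erythroid and neutrophil lists overlapped. The T lineage score was 4.36 to 4.63 in their libraries and 4.74 to 5.83 in those of the other 6, without overlap. This list holds *Cd8a* (0.03 to 179 FPKM) and *Cd4* (1.23 to 174 FPKM) beside genes such as *Lck* (115 to 325 FPKM). T cell content and the level of single markers therefore cannot be told apart in it. The neutrophil score was 1.32 and 1.86 in JW14, 3.71 and 4.16 in 8633, 4.72 and 5.00 in 5C, and between 4.41 and 7.12 in the other 6, so that 5C lay within their range. The myeloid score of the 3 was 0.54 to 1.85 against 1.21 to 3.07, their erythroid score 0.26 to 1.05 against 0.44 to 4.86, and their B lineage score 0.08 to 0.12 against 0.16 to 1.57. The gap in the B lineage score lay near the floor, as each B lineage marker had a median of at most 0.51 FPKM. For comparison, 3 counts on 1 kb of exon were 0.0149 to 0.365 FPKM over the libraries. The part of marrow composition in the level of the replication genes was not tested.

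**Figure D5:**
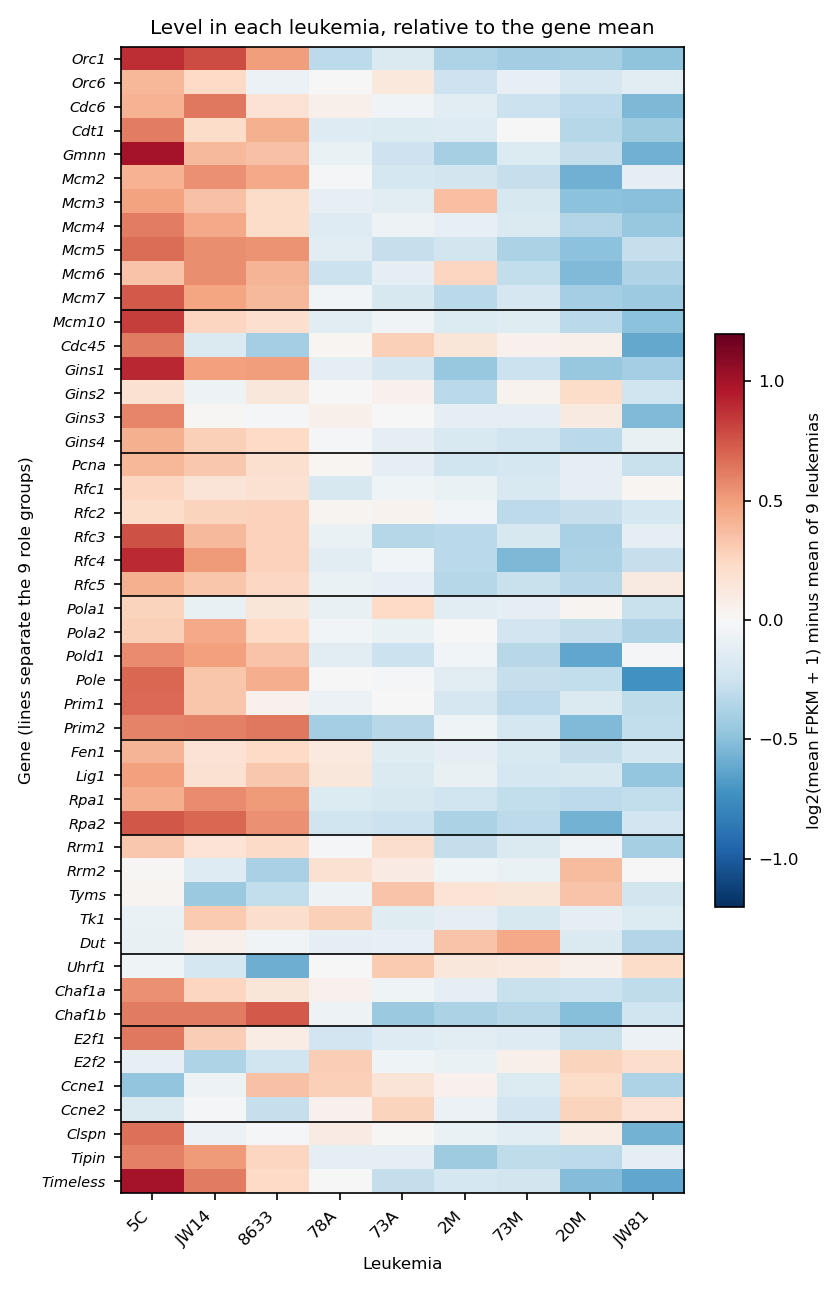
Level of each of the 48 genes in 9 leukemias as log2(mean FPKM + 1) minus the mean of the gene over leukemias, with leukemias ordered by their score. The first 3 columns, 5C, JW14 and 8633, are red for most licensing, clamp, polymerase and single-strand binding genes, and paler or blue for nucleotide supply genes and G1/S regulators.

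This pattern was then counted by role, as a description, since the members themselves set the choice of the 3 leukemias. It held for 9 of 11 licensing genes, 6 of 6 clamp and loader genes, 5 of 6 polymerase and primase genes and 4 of 4 genes for flap removal, ligation and single-strand binding. It held for 3 of 6 helicase activation genes, for 2 of 3 chromatin genes and for 2 of 3 fork protection genes. It held for none of the 5 nucleotide supply genes and for 1 of 4 G1/S regulators, *E2f1*. Among genes that are not members it held for 15 of 24 further nucleotide supply genes and for 18 of 46 further replication genes, and for 2 of 15 E2F and pocket protein genes, none of 20 mitosis genes and none of 55 histone genes. Differences between roles were not tested. The widest ranges were those of *Timeless*, from 10.4 FPKM in JW81 to 34.0 FPKM in 5C, and *Gmnn*, from 18.6 FPKM in JW81 to 57.5 FPKM in 5C. *Rfc4* ranged from 20.3 FPKM in 73M to 56.8 FPKM in 5C, *Pole* from 10.4 FPKM in JW81 to 29.7 FPKM in 5C, and *Orc1* from 4.52 FPKM in JW81 to 13.2 FPKM in 5C. The narrowest ranges were those of *Rfc1* (24.3 to 33.6 FPKM), *Tk1* (11.5 to 16.8 FPKM) and *Pola1* (15.9 to 23.5 FPKM).

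Of the 11 licensing genes 9 set apart the same leukemias at higher levels. The exceptions were *Mcm3* and *Orc6*. *Mcm3* was at 92.6 FPKM in 2M, against 91.9 in JW14 and 83.6 in 8633. *Orc6* was at 19.6 FPKM in 73A, against 16.9 in 8633. *Mcm6*, the most abundant licensing gene (mean 105 FPKM), was at 149 FPKM in JW14, 135 in 8633 and 129 in 5C, and at 121 FPKM or less elsewhere. *Mcm2* was at 52.3 FPKM in JW14, 49.1 FPKM in 8633 and 47.7 FPKM in 5C, while the other 6 leukemias lay between 23.5 and 34.7 FPKM. *Cdt1* was at 22.1 FPKM in 5C, 19.2 in 8633 and 16.5 in JW14, and at 10.2 to 14.0 FPKM elsewhere. *Pcna* was at 202.2 FPKM in 5C and 126.6 FPKM in JW81. *Tipin* was at 76.9 FPKM in 5C and 37.2 FPKM in 2M.

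Several nucleotide supply genes and regulators ran in another order, although *Rrm2*, *E2f2* and *Ccne2* did not pass the test across leukemias (adjusted p = 0.0792, 0.0953 and 0.478 by edgeR). *Tyms* was at 37.9 FPKM in 20M and at 21.4 FPKM in JW14, its lowest value. *Rrm2* was at 71.5 FPKM in 20M and at 41.6 FPKM in 8633. *Dut* was at 127.4 FPKM in 73M and 72.3 FPKM in JW81. *Uhrf1* was highest in 73A (130 FPKM) and lowest in 8633 (69.2 FPKM). *E2f2* was at 15.1 FPKM in 78A and 9.13 FPKM in JW14, whereas *E2f1* was at 10.2 FPKM in 5C and 4.99 FPKM in 20M. The ratio of *E2f1* to *E2f2* was below 1 in 17 of 18 libraries and reached 1.02 in the DEX library of JW14. *Ccne1* was lowest in 5C (4.59 FPKM) and highest in 8633 (8.90 FPKM), and *Ccne2* lay between 10.5 FPKM in 8633 and 15.8 FPKM in 20M.

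Within complexes the subunits at the ends of the order were mostly the same across libraries, while the order between them varied. In FPKM, which is scaled by exon length, *Mcm6* was the highest of the 6 MCM2-7 subunits in 17 of 18 libraries and *Mcm2* the lowest in 18 of 18, and the highest subunit stood at 2.22 to 4.16 times the lowest. *Gins4* was the highest GINS subunit in 18 of 18 libraries, and *Gins3* the lowest in 16. *Rfc2* was the lowest RFC subunit in 17 of 18 libraries, and *Rfc4* the highest in 10. *Pcna* was the highest of all 48 members in 15 of 18 libraries. These are levels of mRNA, and the annotated exons set the length by which they are scaled.

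The other genes of the pathway, none of them members, were read from the same fit. Of 46 further replication genes, 7 were lower (15.2%, all genes 6.79%) and 2 higher (4.35%, all genes 6.22%) in the DEX columns, and their median fitted change was -0.08. By DESeq2 11 were lower (23.9%, all genes 10.1%) and 2 higher (4.35%, all genes 9.02%). The lowest adjusted p values of the 46 by edgeR were those of *Pole4* and *Hells*. *Pole4*, a small subunit of polymerase epsilon, was fitted at -0.46 (SE 0.0895, adjusted p = 0.00929). *Hells*, a chromatin remodeller, was fitted at -0.50 (SE 0.0968, adjusted p = 0.00955). *Rnaseh2b*, a subunit of ribonuclease H2, rose (0.28, SE 0.0618), as did *Pole3* (0.26, SE 0.0771). Of 24 further nucleotide supply genes 6 were lower (25%) and none higher by edgeR, and none was higher by DESeq2. At an unadjusted p under 0.05, 9 were lower (37.5%) and 1 higher (4.17%), beside the 15.7% and 15.8% of all genes. *Ppat*, the entry enzyme of purine synthesis, fell (-0.53, SE 0.0987), and so did *Ctps*, which makes CTP (-0.53, SE 0.0992). Of 15 E2F and pocket protein genes 3 were lower (20%), among them *E2f3* (-0.40, SE 0.0886) and *E2f6* (-0.28, SE 0.0676). By edgeR 1 was higher (6.67%), *Tfdp2*, a partner of E2F proteins (0.32, SE 0.0946). By DESeq2 4 of the 15 were lower (26.7%, all genes 10.1%) and 2 higher (13.3%, all genes 9.02%). With a term for the ribosomal RNA libraries, the counts lower by edgeR were 2 of 46, 3 of 24 and 0 of 15, against 1.98% of all genes. Of these 15, 3 were lower at an unadjusted p under 0.05 (20%, all genes 11.1%). In the 4 leukemias without such a library the counts lower were 1 of 46, 3 of 24 and 1 of 15 (222 of all 11339 genes), with 1 of 46 higher. In the 5 with one none was called by edgeR, with 12, 6 and 4 lower at an unadjusted p under 0.05 (11.6% of all genes). Without 20M the counts lower were 5 of 46, 3 of 24 and 1 of 15 (3.19% of all genes), and without 73A they were 5, 4 and 1 (3.77%). The count of further replication genes called higher went from 2 to 0 with the term by edgeR (5 at an unadjusted p under 0.05), and to 1 with no filter, after thinning and without 20M, 2M, 73A, 8633 or JW14. The *Tfdp2* call was lost with the term, in either split, after thinning and when any leukemia other than 5C was left out.

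Genes of mitosis were fitted above 0 between these columns. Of 20 such genes 7 were higher (35.0%, all genes 6.22%) in the DEX columns by edgeR and none was lower, either by edgeR, by DESeq2 or at an unadjusted p under 0.05. None was fitted below 0, and the median was 0.24. Their mean log2(FPKM + 1) changed by -0.09 in 73M and -0.07 in JW81, and by 0.03 to 0.53 in the other 7 leukemias. *Aurkb*, a kinase of chromosome segregation, was fitted at 0.32 (SE 0.0565, adjusted p = 0.00627) and *Cenpa*, the centromeric histone, at 0.37 (SE 0.0673, adjusted p = 0.00715). In the 4 leukemias without a ribosomal RNA library 6 of the 20 passed (30%, all genes 2.23% higher), with a median of 0.32. In the 5 leukemias with such a library none passed by edgeR, 3 were fitted below 0 and the median was 0.12. There 6 were higher at an unadjusted p under 0.05 (30%, all genes 10.3%). With the term 4 passed (20%, all genes 2.12% higher), and without 73A likewise 4 (20%, all genes 2.99%). Of 55 replication-dependent histone genes 17 were higher by edgeR (30.9%, all genes 6.22%) and 33 by DESeq2 (60%, all genes 9.02%). None was lower by either or at an unadjusted p under 0.05. *Hist1h4c* was fitted at 0.38 (SE 0.0716) and *Hist1h2bf* at 0.38 (SE 0.0823). The number higher by edgeR was 2 with the term for ribosomal RNA libraries, 3 without 20M, 6 without 2M or without 73M, 7 without JW81, 9 without 73A and 10 without JW14. Their mRNAs mainly lack a poly(A) tail, and poly(A) RNA was selected. In the 4 leukemias without a ribosomal RNA library none of the 55 passed, and their median was 0.06. At an unadjusted p under 0.05, 5 were lower and 5 higher (9.09% each), against 11.7% and 10.8% of all genes. In the 5 leukemias with such a library the median was 0.48, and none passed either. There 48 of the 55 were higher at an unadjusted p under 0.05 (87.3%, all genes 10.3%). Among marker lists, 1 of 6 myeloid genes (*Itgam*, -0.47, SE 0.131), 1 of 10 neutrophil genes (*Mmp9*, -0.56, SE 0.129) and 1 of 12 T lineage genes (*Cd5*, -0.62, SE 0.125) were lower, and none of the 7 erythroid genes or the 1 B lineage gene tested passed, by edgeR, by DESeq2 or at an unadjusted p under 0.05. The myeloid call was lost when any leukemia other than 5C and 78A was left out, and the neutrophil call without 73A and after thinning. The myeloid and neutrophil calls were also lost with the term for ribosomal RNA libraries and in either split. In the other direction, 3 neutrophil genes were lower without 8633 (all genes 5.53%) and with no filter (3.63%). By DESeq2 (10.1%) and without 78A (6.40%) 2 were lower. With no filter and without 78A, 2 myeloid genes were lower. In the 4 leukemias without such a library the median turned from -0.35 to 0.10 for the neutrophil genes, of which 1 was called higher, and from -0.37 to 0.02 for the myeloid genes. In the 5 with one the medians were -0.70 and -0.85.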

How the data were processed

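Poly(A) RNA of recipient bone marrow was sequenced in paired ends after TruSeq library preparation. Alignment by the authors used Bowtie2 (version 2) against mm10, and RSEM gave the quantification. The deposited values were RSEM expected counts per Ensembl gene, without scaling for depth or length, although the table is named for FPKM. The gene annotation is not given in the sources used here. All 20 columns were matched to samples by leukemia, and for 3 DEX columns the last part of the name differs from the label.

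FPKM were calculated from the expected counts, the total of each library and merged exon lengths of GENCODE release M21 (GRCm38), which gave a length for 37693 genes. Strand was not stated, so overlapping and antisense genes cannot be told apart. The 11339 genes whose mean reached 1 FPKM were tested on rounded counts with edgeR 4.0.16 in R 4.3.3 (TMM, quasi-likelihood test, Benjamini-Hochberg adjustment, threshold 0.05). The pairing comes from the design, since each pair of libraries is from a single leukemia, and leukemia was a block. The test among leukemias had the column word as a term and 8 residual degrees of freedom. DESeq2 1.42.0 was an alternative. Floors are 3 counts and cover counting error only, as do depth limits. Scores and differences used log2(FPKM + 1), which understates changes of low genes. On simulated counts for the 11339 genes, with 200 changed 2-fold between columns, 96.0% were recovered with 5.88% false calls. All fitted changes of the members were smaller than 2-fold, the largest being a log2 fold change of -0.45. Changes of that size and effects of the ribosomal RNA libraries were not simulated, so their recovery is not known. With 200 genes changed 4-fold among leukemias, 94.5% were recovered with 3.57% false calls.

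Members and lists were chosen with earlier results of these data known. Genes given with full values were, per role, the member with the smallest adjusted p and that with the highest mean FPKM, the 5 widest and 3 narrowest ranges among leukemias, the fixed genes *Pcna*, *Mcm2*, *Mcm6*, *Cdt1*, *Gmnn*, *Ccne1*, *Ccne2*, *E2f1*, *E2f2*, *Rrm2* and *Tyms*, and from each comparison list the 2 genes with the smallest adjusted p in each direction that passed. Other members with values, such as *Mcm4*, *Orc6*, *Mcm7* and *Rrm1*, were named after their values were seen. RefSeq promoter windows (GRCm38.p6) were found for 38 of 48 members. Leukemia 4638 entered only as an alternative. A further allele of the donor mice is not reported here. Alternatives were RLE size factors, no filter, each leukemia left out, a term or split for libraries with ribosomal RNA gene counts above 1 per M counts, thinning to the smallest total, genes of at least 200 bases, no block and, for scores, a pseudocount of 0.1, TPM, TMM sizes and the median. TMM sizes for counts by leukemia, and the counts of the lists under alternatives, were chosen after seeing the data.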

Additional observations from a re-analysis of the deposited data

Results flagged for a closer look

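Each of the 48 genes and the scores were examined for a leukemia that stood far from the other 8 in its DEX minus VEH difference in log2(FPKM + 1) or in its level, by the gap to the nearest leukemia over the whole range. Of 98 sets examined 8 were past the limit of Dixon's test for 9 values, where chance gives about 4.9, since it flags about 1 in 20. In 7 of the 8 the leukemia was 73M, whose DEX library holds ribosomal RNA counts and whose VEH library is the deepest. The difference of 73M was -1.01 for *E2f2* (nearest leukemia -0.30), -0.93 for *Gins2* (nearest -0.28), -0.78 for *Rrm2* (nearest -0.29), -0.42 for *Lig1* (nearest -0.09), -0.38 for *Pole* (nearest -0.05), -0.25 for *Clspn* (nearest -0.05) and -0.17 for *Rfc1* (nearest -0.06). For *Cdc45*, the helicase partner of MCM and GINS, JW81 stood apart at -0.57 (nearest -0.13). No cause was tested.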

How the results depend on the processing

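The number of all genes called between DEX and VEH columns was 1475. It was 465 with a term for ribosomal RNA libraries, 475 in the 4 leukemias without such a library, 15 in the 5 with a library of that kind and 8 with no replicate block, where the fits in 4 or 5 leukemias also had fewer samples. Leaving out each leukemia in turn gave 676 to 2041, with 676 without 20M, 739 without 2M, 766 without 73A, 847 without 73M and 966 without JW81. The 3 members called became 5 by DESeq2 (with *Orc6* and *Ccne2*) and 4 with no filter (with *Ccne2*, adjusted p = 0.0286 by edgeR). When each leukemia was left out they became 0 to 4, with 0 without 20M and 1, *Cdc6*, without 2M, 73A, 73M or JW81. By DESeq2 10.4% of members and 10.1% of all genes were lower, and with no filter 8.33% and 3.63%. These shares were 8.33% and 8.97% without 5C, 8.33% and 5.53% without 8633, and 0% and 3.19% without 20M. The members called became 0 with the ribosomal RNA term, in either split and with no replicate block, by edgeR. There the members at an unadjusted p under 0.05 numbered 5 with the term, 5 in each split (10.4% each time) and 1 without the block (2.08%). The shares of all genes there were 22.1%, 22.5% and 21.8%, and 6.22% without the block. The cause was not tested. Under the 19 alternatives the fitted change was negative in all for *Cdc6* (-0.51 to -0.36), *Orc1* (-0.49 to -0.32) and *Mcm4* (-0.38 to -0.26), and *Cdc6* passed in 14, *Orc1* in 10 and *Mcm4* in 10. Their adjusted p ranged from 0.00110 to 0.837, 0.00296 to 1.00 and 0.00476 to 0.968. *Dut* passed without 5C, and *Orc6* without 8633. For 7 named genes that passed under no alternative, the sign changed with the term for *Prim1* (0.049), *Rfc4* (0.031), *Pola1* (0.10) and *Ccne1* (0.021), in the 4 leukemias for *Prim1* (0.13), *Rfc4* (0.13) and *Pola1* (0.060), in the 5 for *Timeless* (0.032) and *E2f1* (0.16), and with no filter for *Gmnn* (-0.0077). When a leukemia was left out the values were -0.060 to 0.034 for *Prim1*, -0.11 to 0.014 for *Rfc4*, -0.13 to 0.019 for *Pola1* and -0.16 to 0.00087 for *E2f1*, crossing 0 without 73M or, for *E2f1*, without 73A. With TMM sizes the members lower in DEX went from 21 to 13 in 5C, from 12 to 8 in 8633, from 11 to 17 in JW14 and from 30 to 18 in JW81. When a leukemia was left out, 41 to 45 members differed among leukemias. The mean score change was then -0.14 to -0.07 and the score range 0.56 to 0.74. These 3 results kept their side and direction under the alternatives run. Under other alternatives the scores of the leukemias spread more widely. They ran from 4.74 to 5.58 as TPM, from 4.15 to 4.96 by the median and from 4.19 to 5.06 in DEX columns alone. The shallowest library held 8226528 counts. Thinning all libraries to it left the same 3 members called.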

Other observations

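Leukemia 4638 was kept apart from the 9 leukemias above. Its score was 4.39 in the VEH and 4.24 in the DEX column, a difference of -0.15. *Cdc6* was at 19.2 FPKM in the VEH and 14.6 FPKM in the DEX column, *Mcm4* at 54.5 and 45.95 FPKM, and *Orc1* at 7.57 and 7.997 FPKM. With 4638 as a further leukemia in the fit, *Cdc6* (-0.45), *Orc1* (-0.39), *Mcm4* (-0.32) and *Orc6* passed. Its ratio of *Cdt1* to *Gmnn* was 1.07 in the VEH and 0.976 in the DEX column, above the 0.675 that was the highest ratio in the other 18 libraries. Its neutrophil score was 8.50 and 8.08, against at most 7.12 in the other leukemias, and its T lineage score was 3.71 and 3.36, against at least 4.36. Its myeloid score was 4.43 and 4.23, against at most 3.07, and its B lineage score 1.66 and 2.10, against at most 1.57. The part of marrow composition in these values was not tested.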
